A study of Rattus norvegicus with 12 samples.

Results

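Expression of the small leucine-rich proteoglycans was examined in the rat cervix. The members were Dcn (decorin), Bgn (biglycan), Aspn (asporin), Lum (lumican), Fmod (fibromodulin), Prelp, Omd (osteomodulin) and Ogn (osteoglycin, also called mimecan), chosen as every probe that the array files name for them. This gave 9 probes for 8 genes, of 30367 probes and 26612 gene names on the array. Cells dispersed from the cervix of 12 adult Sprague Dawley rats were measured on 1-colour Agilent arrays, each array holding a single animal, in 4 groups of 3 rats. Pregnant rats were killed on day 21 postbreeding (D21), and nonpregnant (NP) rats in proestrus. In all groups the cervix was perfused, trimmed and dispersed with collagenase. The whole cervix groups were NP rats 8, 9 and 10 and D21 rats 5, 6 and 7, whose cells were frozen with no further step. The macrophage (Mφ)-depleted groups were NP rats 5, 6 and 7 and D21 rats 1, 2 and 4, whose cells were also incubated with the ED1 antibody and passed over magnetic beads. These are different animals, so that a rat number shared by 2 groups does not join them, and a depleted sample differs from a whole sample in the separation steps as well as in the cells removed.

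Small leucine-rich proteoglycans are secreted proteins made of leucine-rich repeats, and most carry sulphated sugar chains. They bind to collagen fibrils, control how fibrils grow in width and how they are spaced, and bind growth factors such as TGF-β. In a softening cervix, where collagen fibrils become less ordered before birth, they have long been studied as part of the matrix that stromal fibroblasts make. Decorin, biglycan and asporin form class I of the family. Lumican, fibromodulin, Prelp and osteomodulin belong to class II, and osteoglycin to class III.

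The members lie in clusters in the genome, and positions below are those of the probes on rn4, the build named in the files. Probes for Dcn (chr7:35037331-35041132) and Lum (chr7:35086409-35086468) lay 45276 bases apart, both on the + strand. The Dcn probe has 60 bases but spans 3802 bases of genome, so that it crosses at least 1 intron. Prelp (chr13:46863407-46863466, - strand) and Fmod (chr13:46998263-46998322, + strand) lay 134796 bases apart. Ogn (chr17:20987215-20987274), Omd (chr17:21015198-21015257) and Aspn (chr17:21035836-21035895) lay in this order on the - strand, with 48561 bases between the outer probes. Bgn was measured by 2 probes on the + strand of the X chromosome, the brighter at chrX:159393349-159393408 and the second, 1137 bases before it, at chrX:159392152-159392211.

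Probe sequences are shown for Dcn and Lum, because the shared repeat structure of the family could let probes hold like stretches, and for the second probe of Bgn, because the probes of this gene gave different results. In the first pair the capitals mark the longest run of bases that both probes hold, and in the Bgn probe they mark its last codon, a stop codon.
Dcn: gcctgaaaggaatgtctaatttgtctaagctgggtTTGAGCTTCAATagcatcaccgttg
Lum: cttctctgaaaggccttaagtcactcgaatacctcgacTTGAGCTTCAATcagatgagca
Bgn, second probe: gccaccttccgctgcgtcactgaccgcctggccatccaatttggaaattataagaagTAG
The run shared by Dcn and Lum has 12 bases of 60, at bases 36 to 47 of the Dcn probe and 39 to 50 of the Lum probe. The second probe of Bgn therefore ends at the end of the coding sequence, while the brighter probe lies beyond it.

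Levels are given on the log2 scale after division by the 75th percentile of all probes of the same array, so that 0 stands for that percentile. Levels of different probes were not set against each other. The scanner software rated 44.9% to 61.8% of probes per array well above background. Among the members, only Omd (all 3 NP and 1 of the 3 D21 depleted arrays) and Aspn (depleted NP rat 7) had arrays without this rating, and no member spot was saturated. All 8 genes could be tested in at least 1 comparison. Arrays lay on 4 slides scanned on 3 days. Both NP and D21 whole groups were scanned on 1 day, together with depleted NP rat 7 and depleted D21 rat 4, and no slide held both whole and depleted D21 arrays.

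Decorin takes its name from the way it decorates collagen fibrils. In whole cervix its levels were 5.54, 5.74 and 5.79 in NP rats 8, 9 and 10 and 5.92, 5.93 and 5.72 in D21 rats 5, 6 and 7. In depleted cervix they were 1.39, 1.04 and 0.75 in NP rats 5, 6 and 7 and 3.31, 3.86 and 4.04 in D21 rats 1, 2 and 4. The whole groups overlapped, both depleted groups lay below all whole arrays, and every depleted D21 rat lay above every depleted NP rat.

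Biglycan, the closest relative of decorin, had levels at its brighter probe of 4.93, 4.95 and 4.67 in whole NP and 4.43, 4.23 and 4.25 in whole D21 rats, in the same order of rats. After depletion they were 2.43, 2.60 and 2.53 in NP and 3.71, 4.39 and 3.63 in D21 rats. The whole D21 rats lay below the whole NP rats, and 1 of the depleted D21 rats lay within the range of the whole D21 rats. At the second probe the levels were 2.89, 2.84 and 2.75 in whole NP, 3.26, 2.90 and 2.77 in whole D21, 0.16, -0.44 and 0.14 in depleted NP and -0.97, -1.20 and 0.95 in depleted D21 rats. At this probe all depleted arrays lay below all whole arrays, and the depleted D21 rats were on both sides of the depleted NP rats.

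Asporin, which binds collagen and TGF-β, had levels of -0.38, 0.98 and 1.97 in whole NP and 2.24, 2.15 and 2.18 in whole D21 rats. In depleted cervix they were -2.69, -2.29 and -3.54 in NP and -1.75, -0.93 and -0.63 in D21 rats. The whole NP rats were spread over more than 2 log2 units while the whole D21 rats were within 0.1 of each other, and no group overlapped with another. The last of the depleted NP values was not well above background.

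Lumican, which helps to space collagen fibrils, had levels of 3.36, 3.85 and 3.37 in whole NP and 3.62, 3.49 and 3.18 in whole D21 rats. Levels in depleted cervix were -0.49, -1.80 and -1.33 in NP and -0.62, -0.09 and 1.22 in D21 rats. Neither pair of NP and D21 groups was free of overlap, but all depleted arrays lay below all whole arrays.

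Fibromodulin binds the same site on collagen as lumican. Its levels were 1.71, 2.63 and 2.81 in whole NP and 3.13, 2.67 and 3.30 in whole D21 rats, and 0.75, 0.87 and 2.01 in depleted NP and 3.11, 4.14 and 2.46 in depleted D21 rats. Depleted D21 rats lay around the whole D21 rats, and depleted NP rat 7 lay above whole NP rat 8.

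Prelp, which links basement membranes to the connective tissue below them, had levels of 2.71, 3.16 and 3.42 in whole NP and 3.75, 3.56 and 3.43 in whole D21 rats. After depletion they were -0.69, -0.41 and -0.27 in NP and 3.12, 3.71 and 2.40 in D21 rats. The depleted NP rats lay below all others, the whole D21 rats lay just above the whole NP rats, and the depleted D21 rats overlapped with both.

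Osteomodulin, best known from bone, was the member with arrays nearest to background. Its levels were -0.66, -1.12 and -0.03 in whole NP and -2.27, -2.38 and -2.81 in whole D21 rats. In depleted D21 rats they were -2.99, -3.87 and -4.15, the last not well above background, and in depleted NP rats -7.56, -7.23 and -5.19, none of them well above background. Every whole D21 rat lay below every whole NP rat and above every depleted D21 rat.

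Osteoglycin, a regulator of fibril width, had levels of 4.27, 4.29 and 4.24 in whole NP and 4.06, 3.75 and 3.99 in whole D21 rats. In depleted cervix they were -0.54, -0.53 and -0.30 in NP and 1.49, 2.23 and 1.93 in D21 rats. The 4 groups did not overlap, and lay in the order whole NP, whole D21, depleted D21 and depleted NP from high to low.

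**Figure D1:**
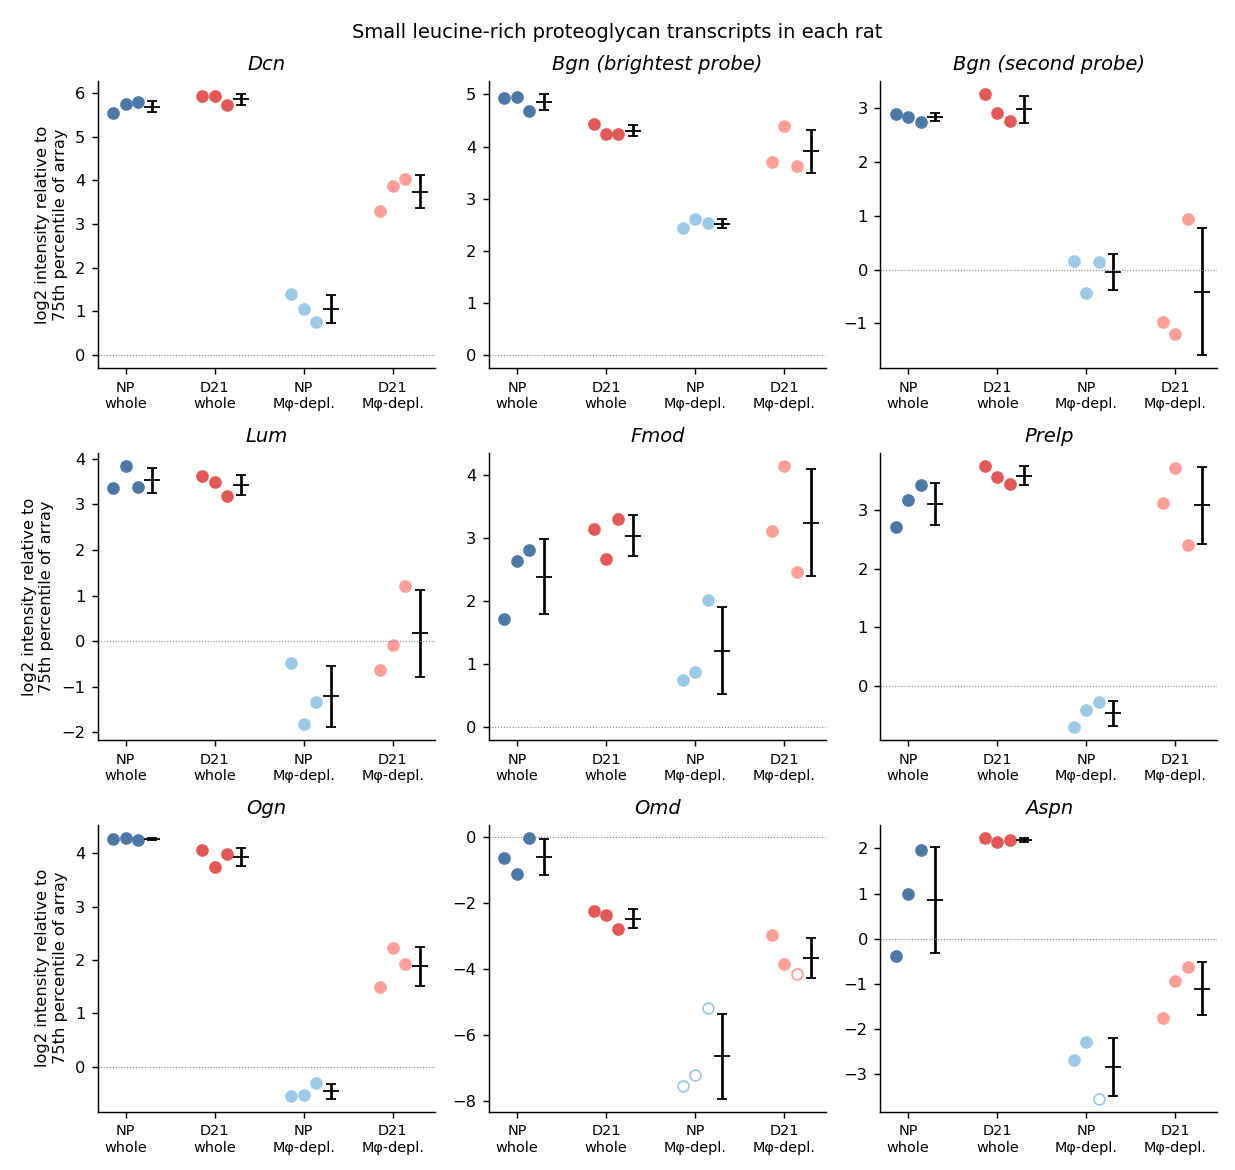
Log2 intensity over the array's 75th percentile (y axis) for each rat in the 4 groups (x axis), with a panel for each of the 9 probes of the 8 genes. Filled points are well above background, open points are not, and bars to the right of the points are mean ± SD (n = 3). Depleted NP rats have the lowest mean in every panel but that of the second probe of Bgn.

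Whether pregnancy changed the family in the whole cervix was asked by comparing D21 with NP rats. No member was called higher or lower by limma at an adjusted p of 0.05, where 5.81% of the 14063 genes tested were called, and 3 members had an unadjusted p under 0.05. The study's own test, run on these values with the same adjustment, called 0 of the 14063 genes, members included. The largest difference was that of osteomodulin, whose D21 mean was 3.67-fold below that of NP rats, a log2 fold change of -1.88 (SE 0.56, adjusted p = 0.0747 from limma). Biglycan had a log2 fold change of -0.55 at its brighter probe (adjusted p = 0.198) and 0.15 at the second (95% confidence interval -0.87 to 1.17), and asporin of 1.33 (adjusted p = 0.169 from limma). Decorin and lumican, with log2 fold changes of 0.17 (95% confidence interval -0.38 to 0.72) and -0.09 (-1.09 to 0.90), were not shown to differ. For osteoglycin the log2 fold change was -0.34 (-0.84 to 0.16), for Prelp 0.48 (-0.23 to 1.19) and for fibromodulin 0.65 (-0.39 to 1.69). The groups did not overlap for 5 of the 8 members, against 44.3% of all genes. The median log2 fold change was 0.04 over the members and -0.08 over all genes tested.

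The call of osteomodulin depended on the fit, the normalization and the threshold. It was called lower with only the whole arrays in the fit (adjusted p = 0.0164 from limma), a fit in which 18.1% of all genes were called, and over 20 alternatives its adjusted p ranged from 0.00194 to 0.470. At the study's threshold, an unadjusted limma p under 0.01 with a 2-fold change, it was the 1 member called lower, as were 3.1% of all genes. Against whole NP rat 10, the 1 NP rat that shared a slide with the 3 whole D21 rats, its log2 difference was -2.45, that of biglycan -0.37 and that of asporin 0.22.

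Depletion in NP rats was then examined by comparing whole with depleted cervix. Expression of 7 of the 8 members was higher in whole cervix, where 32.8% of the 13419 genes tested were called in either direction and 17% were called higher. Osteoglycin was 26.5-fold higher (log2 fold change 4.73, SE 0.23, adjusted p = 5.94e-07 from limma), lumican 26.6-fold (4.73, SE 0.45, adjusted p = 2.27e-05 from limma) and decorin 24.7-fold (4.62, SE 0.25, adjusted p = 1.01e-06 from limma). Asporin was 13.0-fold, Prelp 11.8-fold and biglycan 5.02-fold higher, with adjusted p-values from limma of 0.000353, 1.62e-05 and 3.26e-05. Osteomodulin was at least 14.4-fold higher (adjusted p = 1.84e-05 from limma), a bound that sets its whole level against the higher of its own signal and the lowest signal well above background on each depleted array. Fibromodulin was not called (log2 fold change 1.17, SE 0.47, adjusted p = 0.0788 from limma), but was called without depleted NP rat 7 (1.57, adjusted p = 0.0344 from limma). Over its 20 alternatives the adjusted p of fibromodulin ranged from 0.0339 to 0.354. The groups did not overlap for 7 of the 8 members, against 47% of all genes. The median over the members was 4.16, or 3.77 with osteomodulin at its bound, and -0.04 over all genes tested. Between the 2 whole NP rats and the 1 depleted NP rat (rat 7) of slide 1, the log2 differences were 4.88 for decorin, 4.94 for lumican and 4.58 for osteoglycin, and 0.17 for fibromodulin.

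In D21 rats, expression of 4 of the 8 members was higher in whole than in depleted cervix, where 22.4% of the 14262 genes tested were called in either direction and 11.9% were called higher. Asporin was 9.79-fold higher (log2 fold change 3.29, SE 0.53, adjusted p = 0.00257 from limma) and lumican 9.59-fold (3.26, SE 0.45, adjusted p = 0.00108 from limma). Decorin was 4.34-fold (2.12, SE 0.25, adjusted p = 0.000445 from limma) and osteoglycin 4.14-fold higher (2.05, SE 0.23, adjusted p = 0.000294 from limma). The remaining members were not called: biglycan had a log2 fold change of 0.39 (95% confidence interval -0.13 to 0.91), Prelp 0.50 (-0.21 to 1.21), osteomodulin 1.19 (-0.04 to 2.41) and fibromodulin -0.21 (-1.25 to 0.84). The groups did not overlap for 5 of the 8 members, against 44.5% of all genes. The median was 1.62 over the members and -0.06 over all genes tested.

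Whole and depleted D21 arrays shared no slide. With slide as a block, where whole and depleted D21 arrays are joined only through NP arrays, none of the 4 was called by limma, although their log2 fold changes were 1.85 for decorin, 2.87 for lumican, 1.89 for osteoglycin and 1.53 for asporin, and of all 14262 genes 51 were called. Over 20 alternatives each, the lowest and highest adjusted p were 5.26e-06 and 0.169 for decorin, 5.26e-06 and 0.250 for lumican, 4.76e-06 and 0.136 for osteoglycin and 7.31e-05 and 0.565 for asporin. Against depleted D21 rat 4, the 1 depleted D21 rat scanned on the day of the whole arrays, the differences were 1.82, 2.21, 2.01 and 2.81.

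**Figure D2:**
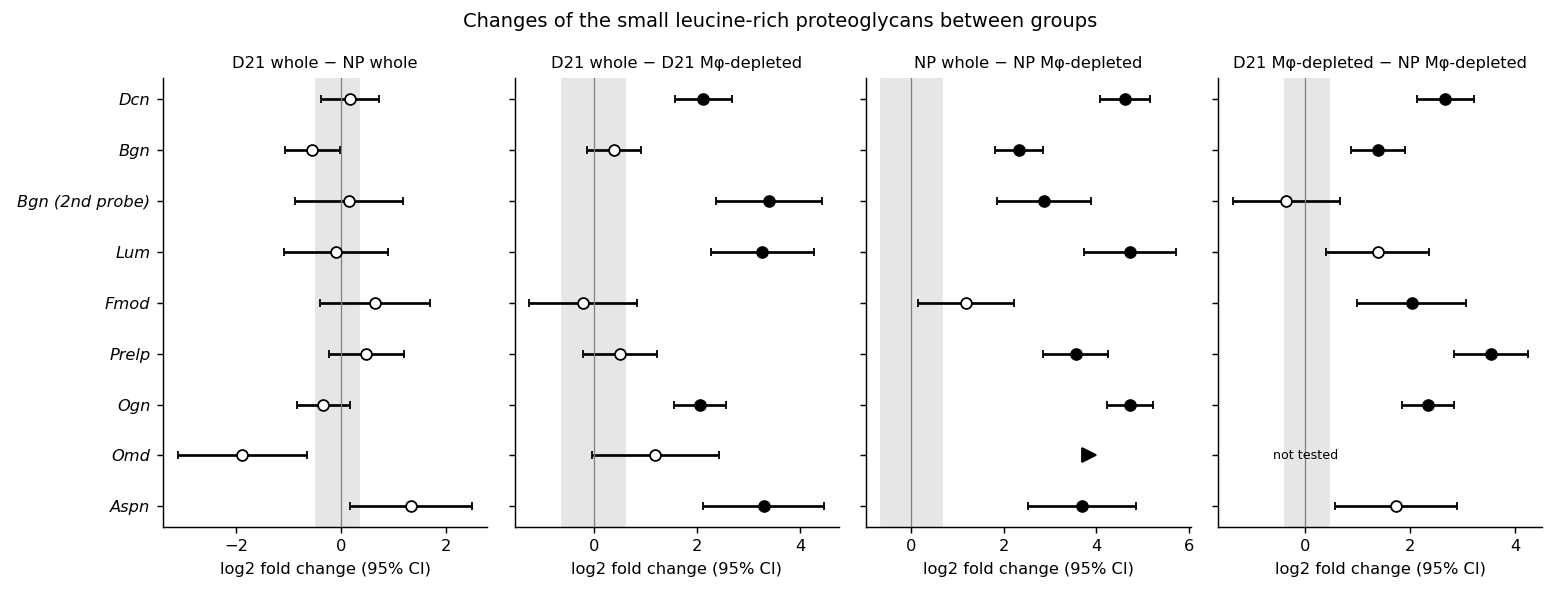
Log2 fold change (x axis) of each member and of the second probe of Bgn (rows) in the 4 comparisons (panels), with 95% confidence intervals from limma. Filled points were called at an adjusted p of 0.05, open points were not, the triangle is the lower bound for Omd, and the grey band spans the quartiles of all genes tested. Filled points number 0 of 8 genes between the whole groups, and the 7 called genes in NP rats lie right of the band.

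Between the depleted groups, expression of 5 of the 7 members tested was higher in D21 than in NP rats, where 4.6% of the 13413 genes tested were called in either direction and 3.62% were called higher. Prelp was 11.6-fold higher (log2 fold change 3.54, SE 0.32, adjusted p = 0.000221 from limma), decorin 6.38-fold (2.67, SE 0.25, adjusted p = 0.000221 from limma) and osteoglycin 5.07-fold (2.34, SE 0.23, adjusted p = 0.000287 from limma). Fibromodulin was 4.08-fold higher (2.03, SE 0.47, adjusted p = 0.0340 from limma), and biglycan was 2.62-fold higher at its brighter probe (1.39, SE 0.23, adjusted p = 0.00647 from limma). Asporin (1.74, adjusted p = 0.0957 from limma) and lumican (1.38, adjusted p = 0.114 from limma) were not called. Osteomodulin was not tested, since neither group had this rating on all its arrays, and no fold is given for it. The groups did not overlap for 6 of the 7 members, against 17.1% of all genes. The median was 2.03 over the members and 0.02 over all genes.

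The call of fibromodulin was lost in 11 of 20 alternatives, among them those without depleted NP rat 5 or 6 or depleted D21 rat 1 or 2 (adjusted p = 0.0987 to 0.146 from limma), and its adjusted p over all 20 ranged from 0.00751 to 0.597. On slide 3 its difference between depleted D21 rat 2 and depleted NP rats 5 and 6 was 3.33, and on slide 1, between depleted D21 rat 4 and depleted NP rat 7, 0.46, while for Prelp these were 4.26 and 2.68 and for decorin 2.64 and 3.28.

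Whether the difference between whole and depleted cervix was itself unequal between D21 and NP rats was put to an interaction test, which uses the same 12 arrays and so adds no samples to the comparisons above. The difference was smaller in D21 rats for 5 of the 8 members, where 2.39% of the 14572 genes tested were called in either direction and 1.95% in this one. The D21 difference minus the NP difference was -3.05 for Prelp (SE 0.46, adjusted p = 0.00876 from limma), -2.68 for osteoglycin (SE 0.32, adjusted p = 0.00489 from limma) and -2.50 for decorin (SE 0.36, adjusted p = 0.00705 from limma). For biglycan it was -1.93 at the brighter probe (SE 0.34, adjusted p = 0.0150 from limma). For osteomodulin the fitted value was -4.86 (adjusted p = 0.0120 from limma), which rests on the 3 depleted NP arrays and on depleted D21 rat 4, none of them well above background. With the NP difference of osteomodulin at its bound the value was -2.66, which was not tested. Lumican (-1.47, adjusted p = 0.246), fibromodulin (-1.38, adjusted p = 0.296) and asporin (-0.40, adjusted p = 0.804 from limma) were not called. The median was -2.22 over the members and -0.05 over all genes. With slide as a block only decorin and osteoglycin were called, where 0.377% of all genes were called. With normexp background correction only osteoglycin was called, where 0.357% of all genes were called. Biglycan was not called without whole D21 rat 6 (-1.90, adjusted p = 0.0560 from limma) or 7 (-1.91, adjusted p = 0.0643 from limma), and its adjusted p over 23 alternatives ranged from 0.00229 to 0.317.

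**Figure D3:**
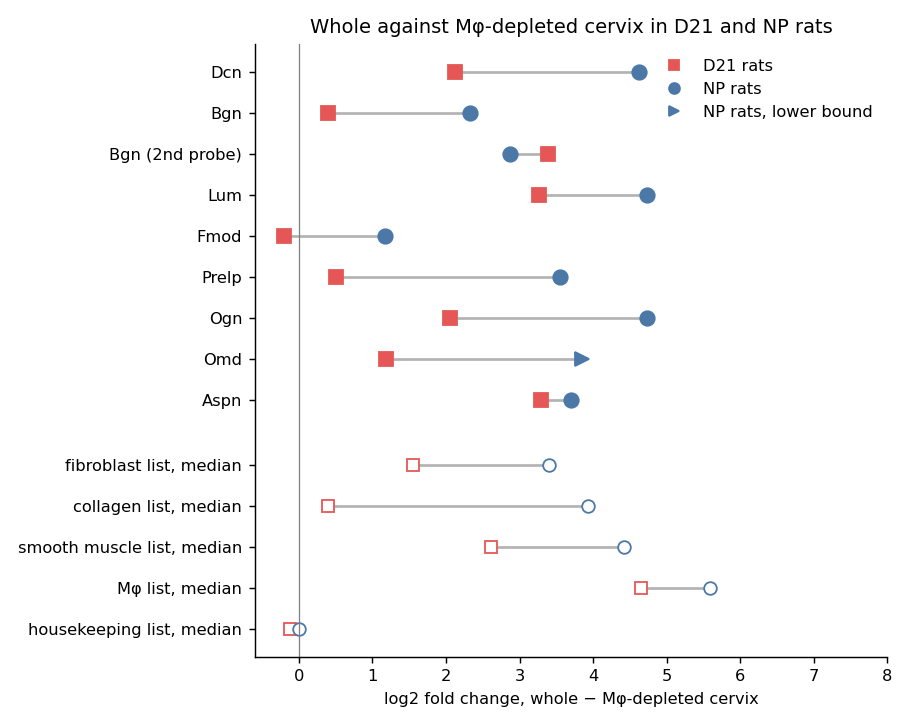
Log2 fold change of whole over depleted cervix (x axis) in D21 rats (squares) and NP rats (circles) for each member and for the second probe of Bgn (filled), and the median fitted change of gene lists (open). The triangle is the lower bound for Omd. The square lies left of the NP symbol for each of the 8 genes, at 3.29 against 3.70 for Aspn and 0.50 against 3.56 for Prelp, and right of it only for the second probe of Bgn.

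The probes of biglycan gave different answers for the depleted D21 rats. At the second probe whole D21 cervix was 10.5-fold higher than depleted (log2 fold change 3.39, SE 0.47, adjusted p = 0.00104 from limma), against 0.39 at the brighter probe. Depleted D21 rats were not called different from depleted NP rats at the second probe (-0.36, adjusted p = 0.680 from limma), and the interaction was 0.51 (adjusted p = 0.707 from limma). In NP rats whole cervix was higher than depleted at both, by 2.87 (adjusted p = 0.000768 from limma) and 2.33. The gap between the log2 fold changes of the probes was 2.99 in D21 rats. Of 1169 genes with 2 probes above background on all 12 arrays, 3 had a gap at least this large (0.257%), biglycan itself among them, and the median gap was 0.63. For NP rats the gap of biglycan was 0.54, the median gap 0.28, and 21.6% of the genes, biglycan included, had a gap at least as large. With the second probe in place of the brighter, 5 members were higher in whole than depleted D21 cervix, 4 were higher in depleted D21 than NP rats, and 4 had an interaction.

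**Figure D4:**
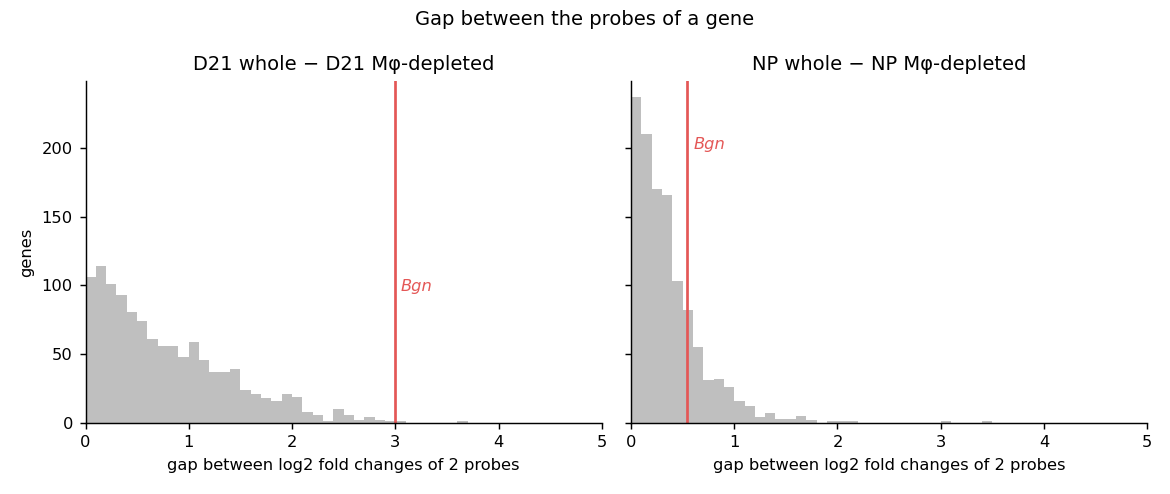
Number of genes (y axis) by the gap between the log2 fold changes of their 2 probes (x axis), for whole over depleted cervix in D21 rats (left) and NP rats (right), over 1169 genes. The line marks Bgn, at 2.99 in D21 rats and 0.54 in NP rats.

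Markers of the cells that could carry these transcripts moved as well. In bulk samples, fewer cells of a type and less RNA per cell cannot be told apart. In NP rats, 9 of the 10 fibroblast genes tested were higher in whole than in depleted cervix (median log2 fold change 3.40, or 3.13 with Cd34 at its bound), among them Pdgfra, a receptor for platelet-derived growth factor (4.24), the matrix protein Dpt (5.53, with 2 of 3 depleted NP arrays well above background) and the protease Fap (4.82, with 1 of 3). In D21 rats 5 of 10 were, with a median of 1.55. Between the depleted groups 7 of 9 were higher in D21 rats, with a median of 2.89, and the interaction was called for 4 of 10, all with a smaller difference in D21 rats, as for Dpt (-3.65) and Pdgfra (-3.61). The summed level of the list was 39.9 to 43.8 times the 75th percentile in whole NP, 38.9 to 52.1 in whole D21, 20.1 to 34.0 in depleted D21 and 5.85 to 6.41 in depleted NP rats. Cd34 was not well above background on any depleted NP array. The part of these cells in the results on the members was not tested.

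Smooth muscle genes were higher in whole cervix for 9 of 9 tested in NP rats (median 4.42) and 6 of 9 in D21 rats (median 2.61), and between the depleted groups 3 of 7 were higher in D21 rats. Their summed level was 397 to 642 in whole NP, 277 to 382 in whole D21, 42.7 to 153 in depleted D21 and 20.3 to 27.5 in depleted NP rats. The Mφ genes, markers of the cells that the separation targets, were higher in whole cervix for 13 of 15 in D21 (median 4.65, or 4.55 with bounds) and 11 of 13 in NP rats (5.59, or 5.13 with bounds). Adgre1, which encodes the Mφ surface receptor F4/80, was not well above background on any depleted array. Cd68 (-0.14 in D21 and 0.54 in NP rats) and Cd14 (0.26 and -0.23) were not called in either, and were well above background on every depleted array. Summed Mφ levels were 76.2 to 117 in whole NP, 88.7 to 92.0 in whole D21, 11.9 to 17.4 in depleted D21 and 5.37 to 16.1 in depleted NP rats. The interaction was called for 0 of 15 Mφ genes by limma, with 1 at an unadjusted p under 0.05. Among these, Adgre1 and Mrc1 were not well above background on any depleted array, and Csf1r was on 1 of 3 in each depleted group. For such genes the interaction rests on signal near background and cannot measure a difference in removal. The interaction was called, always with a smaller difference in D21 rats, for 4 of 9 smooth muscle genes (median -1.81), 7 of 10 collagen chains (median -3.07) and 5 of 5 skeletal muscle genes. Immediate-early genes, which cells switch on quickly when stimulated, were lower in whole cervix for 8 of 9 in NP and 9 of 10 in D21 rats. Their summed level was 14.4 to 19.8 in whole NP, 29.8 to 31.9 in whole D21, 140 to 152 in depleted D21 and 69.1 to 121 in depleted NP rats. The part of any of these lists in the results on the members was not tested.

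Epithelial genes were lower in whole cervix for 7 of 10 in NP rats and 4 of 10 in D21 rats, where 1 was higher, and 7 of 10 were higher in whole D21 than in whole NP cervix. Endothelial genes were higher in whole cervix for 5 of 10 in D21 rats, and in NP rats 3 of 9 were higher and 1 was lower. Skeletal muscle genes were higher in whole cervix for 5 of 5 in NP and 2 of 4 in D21 rats, and 4 of 5 were lower in whole D21 than in whole NP cervix. Of 8 housekeeping genes 0 were called by limma in each comparison, with 0 to 3 at an unadjusted p under 0.05.

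**Figure D5:**
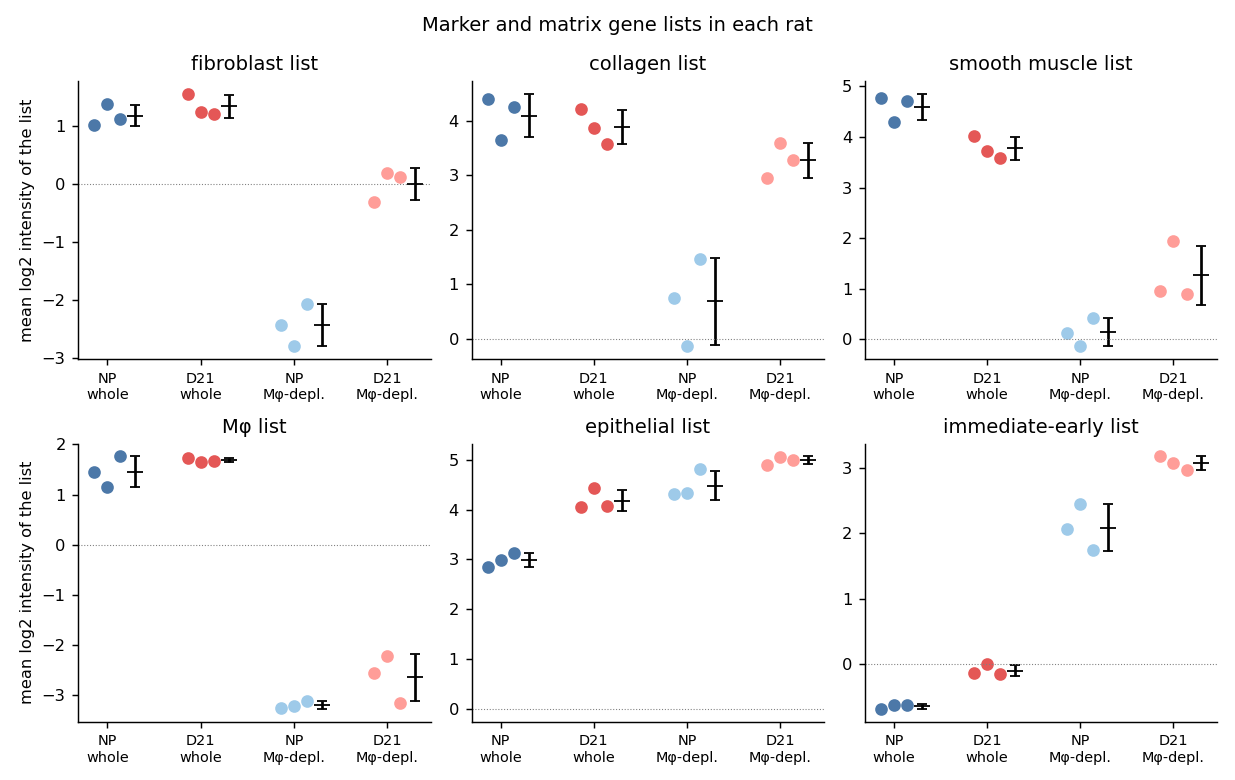
Mean log2 intensity over the array's 75th percentile (y axis) over the genes of 6 lists (panels) for each rat in the 4 groups (x axis), with mean ± SD (n = 3) to the right of the points. Fibroblast genes averaged 1.18 in whole NP, 1.34 in whole D21, 0.00 in depleted D21 and -2.43 in depleted NP rats.

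Collagen chains, to whose fibrils the proteoglycans bind, were set beside them. In whole cervix 0 of 10 were called between D21 and NP rats by limma, and 1 had an unadjusted p under 0.05. In NP rats 9 of 9 were higher in whole than in depleted cervix (median 3.93), led by Col1a1 (4.33), Col6a1 (4.24) and Col5a1 (4.19). In D21 rats 2 of 10 were, Col5a2 (1.59) and Col6a1 (1.19), with a median of 0.39. Between the depleted groups 7 of 9 were higher in D21 rats (median 3.18), led by Col1a2 (4.23), Col1a1 (3.76) and Col6a2 (3.45). Set beside the collagen medians of 3.93, 0.39 and 3.18 in these 3 comparisons, which share arrays with one another, Prelp had 3.56, 0.50 and 3.54, decorin 4.62, 2.12 and 2.67, and lumican 4.73, 3.26 and 1.38.

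Of the enzymes that build and sulphate the sugar chains of proteoglycans, 29 were on the array. The sulphotransferase Chst5 alone, of 21 tested, was called between the whole groups, and was higher in D21 rats (2.38, adjusted p = 0.00781 from limma). In NP rats 8 of 21 were higher and 1 lower in whole cervix, among them Csgalnact2 (2.81) and Chsy1 (2.41), which add sugars to chondroitin chains, and Chst12 (1.91), which sulphates them. In D21 rats 4 of 22 were higher, namely Csgalnact2 (2.78), Chst12 (1.44), Dse (1.04), the epimerase that turns chondroitin into dermatan, and Chst14 (2.02-fold), a dermatan sulphotransferase. Dse (1.43) and Chst14 (0.82) were also called higher in whole than in depleted NP cervix. Csgalnact2 was well above background on 2 of 3 depleted NP and 1 of 3 depleted D21 arrays. Between the depleted groups only Chst1 of 21 was higher in D21 rats (2.05), and no interaction was called by limma, with 4 of 22 at an unadjusted p under 0.05.

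Proteases and other proteins that process the matrix were called in whole over depleted NP cervix for 4 of 9, Pcolce (3.75), which speeds the trimming of procollagen, the aggrecanase Adamts5 (3.61), the gelatinase Mmp2 (3.57) and the versican-cleaving Adamts9 (3.48). Adamts5 was well above background on 1 of 3 depleted NP arrays. In D21 rats 0 of 9 were called by limma, with 3 at an unadjusted p under 0.05. Mmp2 (3.27) and Pcolce (2.84) were higher in depleted D21 than depleted NP rats, and both had an interaction (-2.75 and -3.47), as did Adamts9 (-2.94). Among the other proteoglycans, versican (Vcan), a large chondroitin sulphate proteoglycan, was higher by 5.55 in whole over depleted NP cervix and by 4.69 in depleted D21 over depleted NP rats, and Sdc2, a cell surface heparan sulphate proteoglycan, by 2.77 and 2.02. Versican was well above background on 2 of 3 depleted NP arrays. In NP rats 3 of 12 of this list were higher and 3 lower in whole cervix, among the higher Srgn (2.95), the proteoglycan of secretory granules. In D21 rats 3 of 13 were higher and 4 lower, with the largest changes in Prg4 (2.93), also known as lubricin, Agrn (-1.72) and Srgn (1.63), and between the whole groups Gpc3 alone was called (-2.14).

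Of the receptors and ligands that the members bind, 4 of 14 were higher and 3 lower in whole cervix of NP rats, and 3 of 16 were higher and 2 lower in D21 rats. Fn1 (fibronectin) was higher by 3.31 and 1.66, and Tgfbr3, the TGF-β coreceptor, by 3.29 and 4.44, with 2 of 3 depleted NP and 1 of 3 depleted D21 arrays well above background for Tgfbr3. Egfr was lower in NP rats (-1.81). In D21 rats Lrp1, an endocytic receptor for decorin, was higher (1.29), and the ligand Bmp2 (-1.88) and the receptor Igf1r (-1.05) were lower. Lrp1 (1.29) and Igf1r (-1.61) were also called in NP rats, in the same directions, while Bmp2 was not (0.05). Between the depleted groups Bmp2 (2.29), Fn1 (2.13) and Kdr (1.61) were higher in D21 rats, where Kdr also belongs to the endothelial list. Between the whole groups 0 of 16 were called by limma, with 4 at an unadjusted p under 0.05. Of 10 further members of the leucine-rich family, 7 were on the array, and Tsku alone was well above background often enough to be tested. It was not called in any comparison.

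Likeness of pattern was measured, as a description, over the 12 arrays as the root mean square difference of the centred log2 levels from those of 14494 genes. Osteoglycin was the gene nearest to decorin (0.32), and decorin was the second nearest to osteoglycin, after Fads2 (0.25). For decorin the nearest genes outside the family were Mrc2 (0.36), Fads2 (0.38) and Dpt (0.42). Decorin was also the third nearest gene to asporin (0.72), after Htra3 (0.67) and C1s (0.70). It ranked 15 for lumican, whose nearest genes were Gjc1 (0.50) and Rarres2 (0.54), and 135 for Prelp, whose nearest were Ednra (0.27), C1r (0.30) and Hsd11b2 (0.30). Biglycan, at its brighter probe, had its nearest genes in Dennd5a (0.21), Tns1 (0.22) and Tmem204 (0.24), with fibromodulin, its nearest family member, at rank 2156. Its second probe was not used here. For fibromodulin they were Kdr (0.39), Mxra8 (0.40) and Lamc1 (0.41), and for osteomodulin, with 4 of its 12 values not well above background, Ddit4l (0.56), Ctsk (0.56) and Ap1s2 (0.64).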

How the data were processed

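RNA from cells of the cervix of 12 rats was measured on 4x44K Agilent rat arrays. The authors deposited scanner intensity values (Feature Extraction 9.5.3.1, background subtracted, no normalization between arrays), and a table of ratio values, which comparison with the intensities showed to be each probe's signal over the 75th percentile of its array. Control spots and outlier spots were left out, spots of a probe averaged, and log2 intensities taken relative to that percentile. Names came from RefSeq accessions where they matched (17328 of 30367 probes, 57.1%) and otherwise from the array files. The brightest probe stood for a gene. A gene was tested where either group compared had all its arrays well above background.

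Groups and rat numbers came from the labels. limma 3.58.1 in R 4.3.3 was used on all 12 arrays, with calls at a Benjamini-Hochberg adjusted p of 0.05 over all genes tested, where the study used Welch's test with an unadjusted p under 0.01 and a 2-fold change. The labels name separate rats, and their number limits the precision: the lowest p that exact permutation of 3 against 3 rats allows is 0.1. The fit was tested on simulated data. Alternatives were both thresholds with limma and Welch's test, the 6 arrays compared, normexp (offset 50), quantile normalization, a percentile over detected probes, the authors' values, other background filters, the mean of all probes, array weights, a block for slide or for scan day, and leaving out each rat. The second probe of Bgn was added after the data were seen. Named genes were the 8 members, for the lists of matrix genes up to 3 genes with the largest change per comparison among those called, where all could be named if 5 or fewer were called, and the 3 nearest genes in pattern. The NP values of Lrp1, Igf1r, Bmp2, Dse and Chst14 lie outside this rule and were added after the results were seen. Marker lists are given by counts, and genes named from them were chosen after their values were seen. The members and the lists were chosen with earlier results of these data known. Python 3.11.15 with pandas 2.3.3 and matplotlib 3.10.9 was used for summaries and plots.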

Additional observations from a re-analysis of the deposited data

Results flagged for a closer look

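For 5 members the difference between whole and Mφ-depleted cervix was not the same in D21 and NP rats by the interaction test of limma, and each is given here as the D21 difference minus the NP difference on the log2 scale. It was -2.50 for Dcn, -2.68 for Ogn and -3.05 for Prelp, with all 3 depleted D21 rats above all 3 depleted NP rats in each. For Bgn it was -1.93 at the brighter probe and 0.51 at the second, which was not called. For Omd it was -4.86 as fitted, which rests on the 3 depleted NP arrays and on depleted D21 rat 4, none of them well above background. With its NP difference at the bound it was -2.66, which was not tested.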

How the results depend on the processing

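No paired analysis was possible because the groups compared share no rat numbers, and those shared by whole D21 and depleted NP rats belong to different animals. Of 216 alternative counts of members called, taken in each direction of each comparison, 201 were equal to the reported count or within 1.5 times it. Every comparison had a reported count of 0 in at least 1 direction, where only 0 was taken as the same, so that this share includes counts with little room to move. Between whole D21 and NP cervix the reported counts were 0. Here array weights gave 1 higher (Aspn) and 2 lower (Omd and Bgn), where 31.6% of all genes were called. The study's threshold in limma gave 1 lower (Omd), where 8.48% of all genes were called in either direction. So did the 6 arrays compared (18.1% of all genes called), quantile normalization (8.03%), scan day as a block (9.89%) and the authors' values (6.02%). Of the 4 higher in whole than depleted D21 cervix, 0 were called by Welch's test with adjustment, which called 12 of all 14262 genes, and 0 with slide as a block, which called 51. Of the 5 higher in depleted D21 than NP rats, Welch's test with adjustment gave 0, as for all 13413 genes. At the study's threshold Welch's test gave 3, where 1.55% of all genes were called. The 6 arrays compared gave 3 (1.46% of all genes called) and normexp gave 3 (1.9%). Of the 5 interactions normexp kept 1, where 0.357% of all genes were called, and slide as a block 2, where 0.377% were. The direction turned for Lum between the whole groups with slide as a block (0.060), for Fmod in D21 rats with normexp (0.059) and quantile normalization (0.048), and for the Aspn interaction with array weights (0.077). Leaving out 1 rat at a time turned these as well: Lum ranged from -0.19 to 0.066 (above 0 without whole NP rat 9 or whole D21 rat 7), Fmod from -0.59 to 0.24 (above 0 without depleted D21 rat 2) and the Aspn interaction from -1.02 to 0.15 (above 0 without whole NP rat 10). None of these was called. With the second probe of Bgn it turned between the whole groups (0.15), between the depleted groups (-0.36) and in the interaction (0.51). Bgn in whole against depleted D21 rats was called with quantile normalization (0.72), array weights (0.47), the mean of its probes (1.89) and its second probe (3.39). Its interaction was also lost without whole D21 rat 6 (-1.90) or 7 (-1.91). A percentile over detected probes moved the median of all genes from -0.06 to 0.13 in D21 whole against depleted cervix and from 0.02 to -0.14 between the depleted groups, and moved no count of members by over 1.5 times. The cause of these changes was not tested. Of 803 values of single members under the alternatives, 733 kept direction and call. Among the members, signal over background limits Omd, and Aspn in depleted NP rat 7, and it limits several list genes on depleted arrays.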
